A study of Mus musculus with 3 samples.

Results

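The interferon-responsive macrophages of the mouse kidney were the cells that the authors' cluster column names Isg+_Macrophage, 273 of the 20266 immune cells in the table of raw counts. They were compared with 1996 cells of Macrophage_1 and 1680 cells of Macrophage_2 from the same kidney compartment and facility. All cells came from wild-type, untreated C57BL/6J mice (male, age 10 weeks), and no group carried a deletion, a transgene or a treatment. Cells sorted for CD45 came from 3 dissected zones, the cortex, the outer (OM) and the inner (IM) medulla, in 3 datasets named after the facilities Aachen, Bonn and Hamburg. The Isg+ cells of cortex, OM and IM numbered 26, 59 and 26 (Aachen), 28, 12 and 13 (Bonn), and 22, 58 and 29 (Hamburg). A library here means the cells of 1 compartment in 1 dataset, which gave 9 libraries and 3 datasets as replicates (n = 3). The whole table held 2122809 to 15267126 UMIs per library. How many mice stand behind a library was not given in the sources used here, and p-values therefore measure the spread between these libraries.

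Interferons are secreted proteins that warn cells of infection. Type I interferons act through the receptor chains Ifnar1 and Ifnar2 and, through transcription factors that include Stat2 and Irf9, switch on genes with an interferon-stimulated response element (ISRE) in their promoter. Interferon gamma, made mainly by T and NK cells, acts through Ifngr1 and Ifngr2 on genes with a gamma-activated site (GAS). The induced genes include antiviral effectors such as the ubiquitin-like Isg15 and the RNA-binding Ifit proteins, guanylate-binding proteins, and the chemokines Cxcl9 and Cxcl10, which attract T cells through Cxcr3.

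Of the GTPase and interferon gamma list, Cxcl9 and Gbp2 differed most from both comparison clusters among the genes tested. Their promoters are shown with those of Isg15, Ifit3 and Cxcl10, which mark the cluster. Each runs from 250 bases before to 50 bases after a RefSeq transcript start (GRCm38.p6), 5′ to 3′ on the gene's strand. Capitals mark matches to the ISRE core GAAANNGAAA, searched on both strands (the other strand reads TTTCNNTTTC), or to the palindromic GAS core TTCNNNGAA.
Isg15: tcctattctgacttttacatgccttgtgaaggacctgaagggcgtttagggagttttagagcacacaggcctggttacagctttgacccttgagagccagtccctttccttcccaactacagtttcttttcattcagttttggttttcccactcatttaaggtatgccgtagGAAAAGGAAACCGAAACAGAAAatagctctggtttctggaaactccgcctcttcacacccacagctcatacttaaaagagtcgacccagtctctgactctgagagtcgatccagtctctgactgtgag
Ifit3: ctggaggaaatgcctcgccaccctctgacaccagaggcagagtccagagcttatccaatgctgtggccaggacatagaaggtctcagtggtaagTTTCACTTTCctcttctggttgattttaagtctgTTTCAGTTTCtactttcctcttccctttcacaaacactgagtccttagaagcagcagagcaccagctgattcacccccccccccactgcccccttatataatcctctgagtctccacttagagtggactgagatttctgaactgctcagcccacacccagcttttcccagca
Cxcl10: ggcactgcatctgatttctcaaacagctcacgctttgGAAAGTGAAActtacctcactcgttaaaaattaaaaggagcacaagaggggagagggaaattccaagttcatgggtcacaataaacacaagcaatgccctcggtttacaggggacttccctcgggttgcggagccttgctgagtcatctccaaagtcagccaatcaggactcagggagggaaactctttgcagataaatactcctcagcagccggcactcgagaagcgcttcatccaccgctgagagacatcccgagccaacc
Cxcl9: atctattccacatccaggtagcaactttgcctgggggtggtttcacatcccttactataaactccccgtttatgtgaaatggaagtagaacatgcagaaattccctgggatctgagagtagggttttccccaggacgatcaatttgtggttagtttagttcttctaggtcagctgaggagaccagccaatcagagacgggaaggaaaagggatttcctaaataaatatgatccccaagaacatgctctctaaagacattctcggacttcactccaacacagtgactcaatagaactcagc
Gbp2: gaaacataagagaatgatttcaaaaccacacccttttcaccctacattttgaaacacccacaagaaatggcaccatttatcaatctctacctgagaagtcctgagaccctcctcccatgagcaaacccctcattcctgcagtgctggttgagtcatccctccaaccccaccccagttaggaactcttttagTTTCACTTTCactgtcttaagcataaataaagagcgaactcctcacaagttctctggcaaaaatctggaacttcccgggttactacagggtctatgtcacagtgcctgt
These windows are chr4:156200769-156201068 (minus strand) for Isg15, chr19:34583279-34583578 (plus strand) for Ifit3, chr5:92348840-92349139 (minus strand) for Cxcl10, chr5:92328030-92328329 (minus strand) for Cxcl9 and chr3:142620413-142620712 (plus strand) for Gbp2. The Isg15 window held 3 overlapping ISRE cores between bases -78 and -57 from the start, Ifit3 held 2 on the opposite strand, and Cxcl10 and Gbp2 held 1 each. The Cxcl9 window held neither motif, and none of the windows shown held a GAS core. This says only that these letters do not occur in these 300 bases. An ISRE core was present for 10 of the 16 antiviral genes with a promoter in the RefSeq table, 62.5%, for 10 of 14 genes of the GTPase and interferon gamma list, 71.4%, and for 1079 of all 27025 genes, 3.99%. A GAS core was present for 6 of the 16, 7 of the 14 and 2582 of all genes, 37.5%, 50% and 9.55%.

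At the level of summed cells the markers matched the label. Levels are CPM, the unique molecular identifiers (UMIs) of a gene relative to all UMIs of the summed cells of a library, scaled by TMM. Isg15 lay at 412, 1023 and 2277 CPM (lowest, median and highest of the 9 libraries) in Isg+ cells, at 26.2, 72.4 and 353 in Macrophage_1 and at 23.4, 73.5 and 181 in Macrophage_2. Ifit3 lay at 174, 356 and 1112 CPM in Isg+ cells, at 16.3, 26.2 and 51.0 in Macrophage_1 and at 6.68, 17.7 and 34.9 in Macrophage_2. The Isg+ libraries did not overlap with those of either cluster for these genes. Cxcl10 lay at 150, 936 and 1979 CPM against 28.1, 164 and 271 in Macrophage_1 and 0, 31.0 and 143 in Macrophage_2, and the Isg+ range overlapped with that of Macrophage_1. The authors' clusters were made from the expression of these same cells, so every difference between clusters is given here as a description, without a test.

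**Figure D1:**
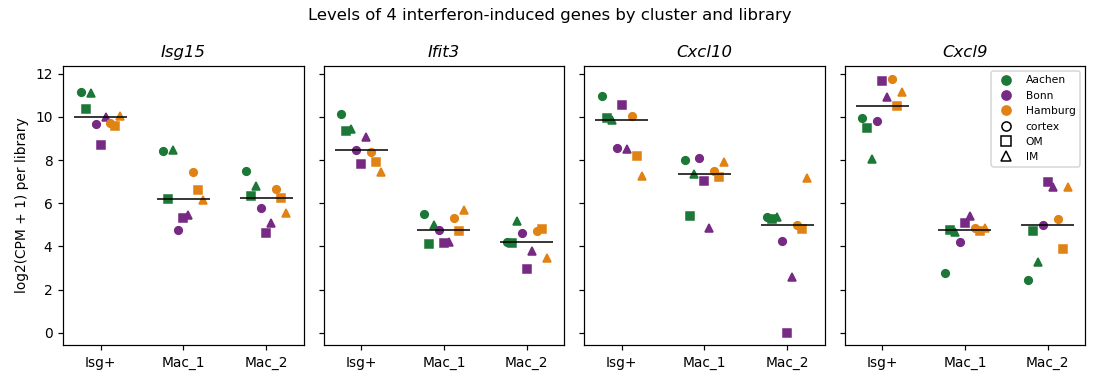
Levels of Isg15, Ifit3, Cxcl10 and Cxcl9 as log2(CPM + 1), 1 point a library (9 per cluster), coloured by dataset and shaped by compartment, with the median as a line. For Isg15, Ifit3 and Cxcl9 all 9 Isg+ libraries lie above all libraries of Macrophage_1 and Macrophage_2, whereas for Cxcl10 the lowest Isg+ library (150 CPM) lies within the range of Macrophage_1.

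The markers were not found in every cell. Of the 273 Isg+ cells, 45 held UMIs of all 3 markers and 75 (27.5%) held none, and the latter were shallow cells with a median of 1146 UMIs. None of the 3 was found in 76.0% of Macrophage_1 and 80.7% of Macrophage_2 cells. To compare cells at 1 depth, each was thinned to 500 UMIs, which left 259 of the 273 Isg+ cells. An Isg15 UMI was then found in 34.0% of Isg+ cells (exact 95% binomial interval 28.2 to 40.1%), down from 61.2% before thinning, in 5.19% of Macrophage_1, 3.72% of Macrophage_2 and 0.392% of B_cell_1 cells, which serve as a background of free RNA. Median depths before thinning were 1633 UMIs in Isg+, 1662 in Macrophage_1, 1782 in Macrophage_2 and 2404 in B_cell_1 cells. These intervals cover counting error only.

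The distributions of antiviral UMIs in single cells overlapped between the clusters. A thinned Isg+ cell held a median of 4 UMIs of the antiviral genes (10th to 90th percentile 0.8 to 12), against 1 (0 to 3) in Macrophage_1 and 1 (0 to 3) in Macrophage_2. No antiviral UMI was found in 10.0% of thinned Isg+ cells, 37.1% of Macrophage_1 and 32.5% of Macrophage_2 cells. Thinned monocytes, which arrive from blood, held a median of 3 (1 to 7). The Isg+ cells differed between datasets, with mean antiviral UMIs of 6.91 (Aachen), 5.57 (Bonn) and 3.59 (Hamburg), whereas Macrophage_1 held 1.19, 1.20 and 1.35.

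**Figure D2:**
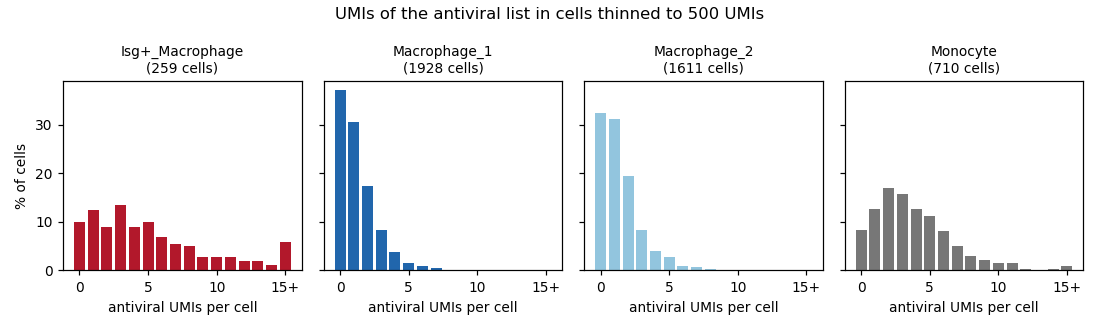
Share of cells (y axis, %) by number of UMIs of the antiviral list (x axis, 15 and above pooled) after thinning each cell to 500 UMIs, for Isg+_Macrophage, Macrophage_1, Macrophage_2 and Monocyte. Isg+ cells spread up to 23 UMIs with a median of 4, while 37.1% of Macrophage_1 cells hold none.

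The antiviral effectors were higher in Isg+ cells as a group. Of 22 genes 21 were in the table, and all 21 had a higher mean CPM over the 9 libraries in Isg+ cells than in both other clusters. Counts by mean CPM, here and below, were not made over all genes, so they have no background share to be judged by. The 14 that passed the filter on low counts had a median log2 difference of 1.86 from Macrophage_1 and 2.01 from Macrophage_2 (library medians 1.21 to 2.64 and 1.26 to 2.52), and 11 of them lay above both clusters in all 9 libraries. The medians were 3.19 and 3.12 without Hamburg (17 genes), 1.24 and 1.28 with thinned cells (3 genes) and 2.82 and 2.84 with all genes of any count (21 genes). Over all 3617 genes tested the medians were -0.08 and -0.07, and 79 genes (2.18%) lay above both in every library. Since a gene can pass the filter through the Isg+ cells alone, these counts describe the cluster and support no claim. Without the Bonn OM and IM libraries, which hold the fewest Isg+ cells, 11 of the 14 and 95 of all genes lay above both in the remaining 7.

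Within the antiviral list, Ifit3 (log2 difference 3.84 ± 0.24 SE from Macrophage_1 and 4.27 ± 0.25 from Macrophage_2), Rsad2 (3.23 ± 0.32 and 4.62 ± 0.37) and Isg15 (3.36 ± 0.18 and 3.97 ± 0.19) stood farthest from the other macrophages. Rsad2 encodes viperin, which blocks viral RNA synthesis, and ranged from 39.5 to 1464 CPM among the Isg+ libraries. The smallest differences were those of Ly6e (0.96 and 0.78), Oas1a (0.95 and 0.91) and Oas2 (0.98 and 1.23), the last 2 being synthases of the 2-5A messenger that activates RNase L. Ly6e lay at 1261 to 2412 CPM in Isg+ cells and at 724 to 1107 in Macrophage_1. Ifit1, chosen after its values were seen, did not pass the filter and lay at 15.8, 136 and 754 CPM against 0, 6.06 and 11.7 in Macrophage_1. Reads of the near-identical Ifit3 and Ifit3b, and of Gbp2 and Gbp2b, may be split between copies.

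Genes that answer to interferon gamma were higher as well. Cxcl9 lay at 260, 1440 and 3498 CPM in Isg+ cells, at 5.88, 25.7 and 41.2 in Macrophage_1 and at 4.42, 31.3 and 127 in Macrophage_2, a log2 difference of 6.02 ± 0.24 and 5.06 ± 0.21. No other gene tested differed more from Macrophage_1. Gbp2, a guanylate-binding protein that attacks pathogen vacuoles, differed by 4.91 ± 0.21 and 3.92 ± 0.19, and the immunity-related GTPase Iigp1 by 3.69 ± 0.24 and 3.88 ± 0.24. Gbp3 (0.97 and 0.77), the Fc receptor Fcgr1 (0.98 and 0.83) and the class II transactivator Ciita (-0.21 and -0.13) were closest to the other clusters. Of the 22 genes 20 had a higher mean CPM than both clusters, and Ido1 was listed at 0 in all 3. The 13 that passed the filter had medians of 2.04 and 2.13 (5.18 and 6.10 with thinned cells, where 1 gene passed), and 10 lay above both clusters in all 9 libraries.

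The UMIs of the chemokine Cxcl9 were unevenly spread over cells. A Cxcl9 UMI was found in 79 of the 273 cells before thinning and in 52 of the 259 thinned cells, 20.1%, against 0.622% of Macrophage_1 and 0.559% of Macrophage_2 cells. In Bonn IM, 119 of the 148 Cxcl9 UMIs were in 1 cell, and in Hamburg cortex 232 of 396. The 52 thinned cells held a mean of 6.27 antiviral UMIs and 6.37 UMIs of the complement genes C1qa, C1qb and C1qc, whereas the 207 others held 4.98 and 8.57. The 52 were also deeper cells, with a median of 3798 UMIs before thinning against 1527. The part of depth in these differences was not tested. In thinned Isg+ cells Cxcl9 was found in 14.4%, 22.6% and 23.9% of the Aachen, Bonn and Hamburg cells, while Isg15 was found in 49.5%, 32.1% and 21.1%. The exact binomial intervals for Cxcl9 were 8.12 to 23.03% (Aachen), 12.28 to 36.21% (Bonn) and 16.21 to 32.97% (Hamburg), and all overlapped. The order of the datasets for Cxcl9 thus lay within counting error. For Isg15 the intervals of Aachen (39.17 to 59.83%) and Hamburg (13.87 to 29.96%) did not overlap, and that of Bonn overlapped with both.

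**Figure D3:**
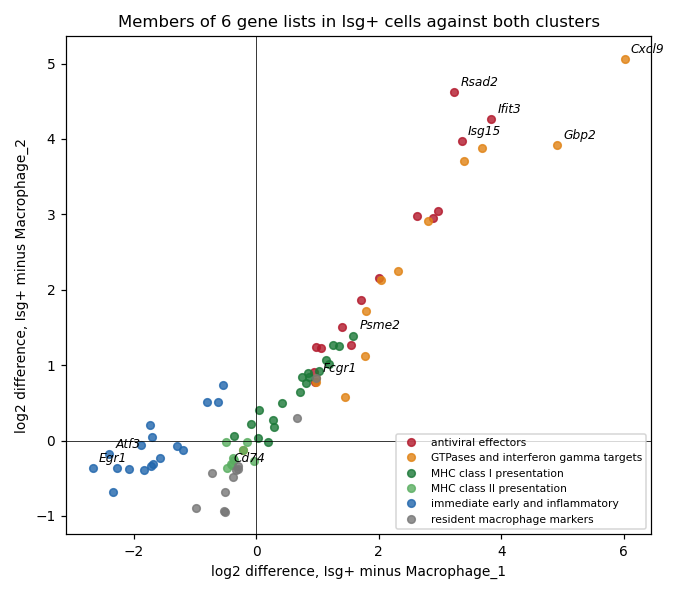
Log2 difference of Isg+ cells from Macrophage_1 (x axis) and Macrophage_2 (y axis) for the members of 6 gene lists that passed the filter, from the edgeR fit over 9 libraries. Antiviral effectors and GTPases lie toward the upper right, up to Cxcl9 at 6.02 and 5.06, whereas immediate early genes lie left of 0 against Macrophage_1 and near 0 against Macrophage_2.

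In the signalling chain, 3 of the 13 genes tested lay above both clusters in all 9 libraries, against 2.18% of all genes. Irf7 and Stat2 were among them, and the receptor chains named below were not. The transcription factor Irf7, which amplifies type I interferon production, differed by 3.20 ± 0.21 and 3.49 ± 0.21 and Stat2 by 1.35 ± 0.22 and 1.70 ± 0.22, and these genes lay above both clusters in all 9 libraries. Among the receptor chains, Ifnar1 differed by -0.10 and -0.24, Ifnar2 by -0.39 and -0.31, Ifngr1 by -0.56 and -0.72, and Ifngr2 by -0.25 and -0.16. Irf9 (-0.49 and -0.51), Irf5 (-0.03 and -0.00) and Jak1 (-0.25 and 0.07) also did not lie above both clusters in every library. Median differences over the 13 genes of the signalling list that passed the filter were -0.10 and -0.00.

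Among the 8 of 14 sensors of foreign nucleic acid that passed the filter, Ifi204 (1.43 and 1.70), the RNA helicase Ifih1 (1.26 and 1.60) and its relative Dhx58 (1.41 and 1.56) had the largest differences, and the endosomal receptors Tlr13 (0.11 and -0.07) and Tlr7 (-0.52 and 0.11) and the STING gene Tmem173 (0.46 and 0.12) the smallest. Ifi205, chosen after its values were seen, did not pass the filter and had a mean of 82.3 CPM in Isg+ cells against 0.704 and 1.72. Ifi204 was the member of those tested that lay above both clusters in all 9 libraries. Of the genes that restrain interferon signals, Usp18, which removes Isg15 from proteins and blocks Ifnar2, differed by 2.65 ± 0.31 and 2.95 ± 0.32, and Trim30a by 1.48 and 1.45. Socs3 differed by -0.96 from Macrophage_1 and by 1.58 from Macrophage_2. Adar (0.42 and 0.41) and Ptpn6 (0.06 and -0.17) were nearer to both.

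Few Isg+ cells held interferon transcripts. Ifnb1, the gene of interferon beta, was represented by 33 UMIs in 6 of the 273 Isg+ cells, of which 13 UMIs were in 1 cell of the Hamburg cortex. In Macrophage_1 106 Ifnb1 UMIs were found in 53 of 1996 cells, and across all clusters 102 cells held 223. Ifng was represented by 3 UMIs in 3 Isg+ cells, and by 4267 UMIs in 1047 of 2375 T_cell_1 cells and 1266 in 254 of 527 NK_cell_2 cells. Ifnk, Ifnl2 and Ifnz had 1 UMI each in all cells, and the 11 Ifna genes listed, Ifnab, Ifne and Ifnl3 were listed at 0. A count of 0 allows up to 3 UMIs.

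By mean CPM, most class I presentation genes were higher in Isg+ cells and most class II genes lower. Of 19 genes of class I presentation 15 had a higher mean CPM than both clusters. In all 9 libraries 5 lay above both, namely the proteasome genes Psmb8, Psmb9, Psmb10, Psme1 and Psme2, against 2.18% of all genes tested. Psme2 differed by 1.59 ± 0.14 and 1.39 ± 0.14, Psmb10 by 1.25 and 1.26 and the class I transactivator Nlrc5 by 1.35 and 1.25, while H2-D1 (0.03 and 0.04), H2-Q6 (-0.08 and 0.22) and Erap1 (0.20 and -0.02) were near 0. Of the 9 class II genes 8 had a lower mean CPM than both clusters, but 0 lay below both in all 9 libraries. Their median differences were -0.37 and -0.26, against -0.08 and -0.07 over all genes tested. Cd74, the invariant chain, lay at 35228, 57149 and 82223 CPM against 60266, 74213 and 99305 in Macrophage_1, and the ranges overlapped. The differences were -0.47 and -0.36 for Cd74, -0.40 and -0.32 for H2-Ab1, -0.41 and -0.31 for H2-Eb1, and -0.15 and -0.02 for H2-DMa.

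The chemokines were mixed. Of 15, 6 had a higher mean CPM in Isg+ cells than in both clusters (Cxcl9, Cxcl10, Ccl5, Ccl7, Ccl8 and Ccl12), and 5 had a lower one. The T cell attractant Ccl5 differed by 2.92 ± 0.35 and 2.21 ± 0.34 and lay above both clusters in 8 of 9 libraries. Ccl3, which recruits leukocytes, lay at 46.8, 754 and 1020 CPM against 362, 3735 and 5203 in Macrophage_1 and 85.8, 878 and 2982 in Macrophage_2. Cxcl16 (-0.01 and 0.04) and Ccl2 (-0.73 and 0.05) were nearer. Median differences over the 13 chemokines that passed the filter were -0.20 and 0.05.

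Against Macrophage_1 alone, the immediate early and inflammatory genes stood lower. All 17 that passed the filter had negative differences from Macrophage_1 (-2.67 to -0.53, median -1.72), whereas the median from Macrophage_2 was -0.19. The transcription factor Egr1 lay at 0, 130 and 688 CPM in Isg+ cells, at 44.5, 724 and 3835 in Macrophage_1 and at 10.6, 125 and 1105 in Macrophage_2. Fosb differed by -2.34 and -0.69 and the heat shock gene Dnajb1 by -2.26 and -0.36, while Nfkbia (-0.63 and 0.52), Ier3 (-0.53 and 0.74) and Tnfaip3 (-0.81 and 0.51) had opposite signs in the 2 comparisons.

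The Isg+ cells carried the markers of resident macrophages at somewhat lower levels. Of 12 markers 10 had a lower mean CPM in Isg+ cells than in both clusters. In every library 2 of the 11 that passed the filter lay below both, against 41 of all 3617 genes tested (1.13%). C1qb, a chain of complement C1q, lay at 4813, 5337 and 8088 CPM against 6169, 6528 and 8664 in Macrophage_1, and the tetraspanin Cd81 at 595, 1121 and 2177 against 1885, 2115 and 3860. Both lay below Macrophage_1 and Macrophage_2 in all 9 libraries (log2 differences -0.30 and -0.38, and -0.98 and -0.89). Adgre1, which encodes F4/80, differed by -0.53 and -0.94, and Fcgr1, which interferon gamma also induces, by 0.98 and 0.83. Of the remaining Fc receptors, the inhibitory Fcgr2b (-0.42 and -0.25) and Fcgr3 (-0.58 and -0.37) were lower, and Fcgr4 (0.61 and 0.34) was higher than both. The complement receptors C3ar1 (-0.73 and -0.85) and C5ar1 (-1.26 and -0.43) were lower and properdin, Cfp (1.27 and 0.10), was not. Of the scavenging genes, the lipid receptor Trem2 (-1.47 and -0.94), the growth factor Igf1 (-1.18 and -0.25) and the mannose receptor Mrc1 (-0.98 and -0.38) had the largest differences and Axl (0.12 and 0.13) the smallest.

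Most monocyte transcripts had a higher mean in Isg+ cells, with a wide spread between libraries. Summed over the 10 monocyte markers, Isg+ libraries held 0.565 to 20.9 UMIs per 10000, Macrophage_1 libraries 0.298 to 2.32, Macrophage_2 libraries 1.56 to 6.83 and monocyte libraries 33.4 to 52.5. By mean CPM 8 of the 10 markers were higher than in both clusters. Only 2 passed the filter, and 0 of the markers tested lay above both clusters in all 9 libraries. Plac8 differed by 5.16 ± 0.38 and 3.83 ± 0.32, and the other tested marker by 0.78 and -0.30. Plac8 is not confined to monocytes here, since 34.3% of B_cell_1 cells held a UMI of it before thinning. Ly6c2 and Ly6i, chosen after their values were seen, were at 0 in 3 and 5 of the 9 Isg+ libraries, and Ly6c2 was at 0 in all 3 Aachen libraries. Ly6c2 UMIs came from 23 cells, and in Bonn cortex 94 of 141 from 1 of them. The 16 thinned cells with a Ly6c2 or Plac8 UMI held a mean of 2.44 C1q UMIs, against 8.51 in the 243 others, and 7.81 antiviral UMIs, against 5.07. They were deep cells, with a median of 7620 UMIs before thinning against 1633. When every cell with a Ly6c2, Plac8 or Ly6i UMI was left out of the 3 clusters (30 of 273 Isg+, 35 of 1996 Macrophage_1 and 77 of 1680 Macrophage_2 cells), the antiviral medians were 1.82 and 1.97 in place of 1.86 and 2.01, and those of the GTPase list 1.77 and 1.69 in place of 2.04 and 2.13.

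Markers of other cell types mostly stayed under the filter. Of the T, NK, B and neutrophil markers, only Cd79b passed the filter (log2 differences -0.32 and -1.12), although all 6 T cell markers and 4 of 5 neutrophil markers had a higher mean CPM in Isg+ cells than in both clusters. Their part in the differences was not tested. At least 2 UMIs of T, B, NK cell, neutrophil or nephron markers were found in 60 Isg+ cells (22%), 20.8% of Macrophage_1 and 19.6% of Macrophage_2 cells, and those Isg+ cells were deeper, with a median of 4029 UMIs against 1340. No cell cycle gene passed the filter. No barcode of an Isg+ cell recurred in another library of the same dataset, and 5 Isg+ cells carried a barcode found in another dataset. Cell names carried 6 different suffixes in Aachen, 3 in Bonn and 1 in Hamburg. Whether an Aachen library joins more than 1 run was not tested.

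Outside the lists, the genes that stood highest above both clusters in every library were Ly6a (4.97 and 3.60), which encodes Sca-1, the costimulatory receptor Cd40 (3.13 and 3.13), Ms4a4c (3.81 and 3.07), Slfn5 (2.35 and 2.20), Daxx (1.94 and 2.06), Herc6 (1.82 and 1.78), Slco3a1 (1.86 and 1.76), Phf11a (1.75 and 1.77), the ADP-ribosyltransferase Parp12 (1.69 and 1.67) and Phf11d (1.60 and 2.01). Cd40 lay at 64.8, 170 and 400 CPM against 8.73, 16.2 and 35.3 in Macrophage_1. The lowest was Mmp12, the macrophage elastase, at 8.88, 85.4 and 312 CPM against 266, 906 and 2093 in Macrophage_1 and 454, 534 and 1890 in Macrophage_2. It was followed by Mctp1 (-1.69 and -1.63), the adaptor Stap1 (-1.35 and -1.24), Pnpla7 (-1.17 and -1.26), Dgkd (-1.40 and -1.11), the tetraspanin Cd9 (-1.05 and -1.62), Arhgap9 (-0.92 and -0.90), the mitochondrial kinase Pink1 (-1.24 and -0.89), Ivns1abp (-0.88 and -0.93) and Pla2g15 (-1.06 and -0.87). The Isg+ range of Mmp12 overlapped with that of Macrophage_1 and not with that of Macrophage_2.

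Among all clusters, the antiviral list reached 73.2 to 148 UMIs per 10000 in Isg+ libraries, 61.3 to 94.6 in monocytes and 74.8 to 82.1 in the 3 libraries of plasmacytoid dendritic cells, and these ranges overlapped. Macrophage_1 (22.8 to 32.3), Macrophage_2 (24.1 to 31.8) and Macrophage_3 (26.1 to 32.3) lay below. The 3 markers together lay at 14.8 to 53.5 in Isg+ cells against 0.498 to 10.6 in monocytes and 1.62 to 9.54 in neutrophils. The GTPase and interferon gamma list reached 23.8 to 72.8 in Isg+ cells and 2.32 to 9.13 in monocytes.

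The share of Isg+ cells depended on the denominator, and no test was made of it. Of resident macrophages (Macrophage_1, Macrophage_2, Macrophage_3 and Isg+), Isg+ cells made up 5.24%, 3.02% and 4.36% in cortex, OM and IM of Aachen, 5.19%, 7.14% and 2.02% of Bonn, and 9.48%, 12.0% and 11.2% of Hamburg. All 3 Hamburg libraries lay above the 6 others. By compartment the mean was 6.64% ± 2.46 (SD, n = 3) in cortex, 7.39% ± 4.50 in OM and 5.86% ± 4.77 in IM, and by dataset it was 4.21%, 4.79% and 10.9%. As a share of all cells the means of Aachen, Bonn and Hamburg were 1.57%, 1.13% and 1.56%, and in cortex Aachen (1.86%) lay above Hamburg (0.898%). Medulla (the mean of OM and IM) minus cortex was -1.55 (Aachen), -0.61 (Bonn) and 2.12 (Hamburg) percentage points, with a mean of -0.01 ± 1.91, so that the datasets pointed different ways. Of Isg+, Macrophage_1 and Macrophage_2 cells alone, the differences were -0.30 (Aachen), 2.44 (Bonn) and 4.93 (Hamburg), with a mean of 2.36 ± 2.62, so that the sign of Bonn turned. The datasets also differed in depth, with median UMIs of Isg+ cells from 742 to 1230 (Aachen), 3653 to 6261 (Bonn) and 1536 to 3813 (Hamburg), and the part of depth in the shares was not tested.

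**Figure D4:**
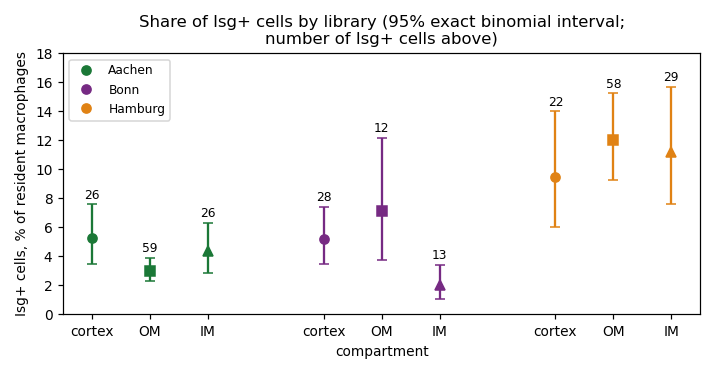
Isg+ cells as a percentage of resident macrophages (y axis) in each library, by dataset (colour) and compartment (x axis), with exact 95% binomial intervals over cells and the number of Isg+ cells above each. The 3 Hamburg libraries, at 9.48% to 12.0%, lie above the other 6, and no compartment is highest in every dataset.

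Position in the kidney was compared within the cluster with edgeR's quasi-likelihood test on summed counts, with the dataset as a block. No gene passed an adjusted p of 0.05 between medulla and cortex in Isg+ cells (0 of 1567 tested, 0%), with 100 genes at an unadjusted p under 0.05 and 1 gene, Apoe, called by DESeq2. Between OM and cortex 2 genes passed (0.128%), Ccl8 and Apoe, both higher in OM, and neither passed with at least 20 cells a library, with thinned cells, without cells holding 2 or more UMIs of other types, or without the dataset block (0 genes each). Between IM and cortex no gene passed (0%), with 65 genes at an unadjusted p under 0.05 and none called by DESeq2. Nearest to the threshold between medulla and cortex were Apoe, Fxyd2 (log2 difference 3.91 ± 0.87, edgeR adjusted p = 0.254) and the endotoxin co-receptor Cd14 (1.39 ± 0.31, edgeR adjusted p = 0.254), and between IM and cortex Fxyd2, Apoe and the lectin Mgl2, none of which passed.

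Apoe, which carries lipids out of macrophages, was at 3823, 16325 and 8399 CPM in cortex, OM and IM of Aachen, 4854, 8841 and 10597 of Bonn, and 1491, 2625 and 2831 of Hamburg. Cortex was lowest in each dataset. The log2 difference was 1.28 ± 0.23 between OM and cortex (edgeR adjusted p = 0.0466) and 1.16 ± 0.21 between medulla and cortex (edgeR adjusted p = 0.0793). In Macrophage_1 and Macrophage_2 the medulla minus cortex differences of Apoe were 0.55 ± 0.15 (edgeR adjusted p = 0.0850) and 0.46 ± 0.12 (edgeR adjusted p = 0.198), and the difference of Isg+ from their mean was 0.62 ± 0.25 (edgeR adjusted p = 0.9995). Without Aachen the OM difference was 0.87 (edgeR adjusted p = 0.333), and without Bonn 1.47 (edgeR adjusted p = 0.0676).

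Ccl8, a monocyte attractant, lay at 27.1, 235 and 0 CPM in cortex, OM and IM of Aachen, 0, 515 and 13.0 of Bonn, and 0, 122 and 15.8 of Hamburg. OM was highest in each dataset. These levels rest on 86 UMIs in 10 of the 129 OM cells and 1 UMI in the 76 cortex cells. In Bonn all 55 OM UMIs were in 1 cell, in Hamburg 15 of 20 were in 1 cell, and in Aachen 11 UMIs were spread over 7 cells. The ratio of OM to cortex per summed UMIs was 97.6, with a counting interval of 17.0 to 3898 that leaves out the spread between cells and libraries (edgeR adjusted p = 7.12e-04 over the libraries). Without Bonn the call was lost (edgeR adjusted p = 0.179), as it was without the Bonn OM and IM libraries of under 20 cells (edgeR adjusted p = 0.333).

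Fxyd2, a subunit of the sodium pump in nephron epithelium, was also higher in the medulla within Macrophage_1 (1.92 ± 0.34, edgeR adjusted p = 0.00364) and Macrophage_2 (2.25 ± 0.36, edgeR adjusted p = 0.00127). In Isg+ cells it was found in 50 of 273 cells, and it was the 1 nephron marker of 8 that passed the filter. The part of free RNA of the nephron in these values was not tested.

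The interferon genes showed no call between compartments in Isg+ cells. Isg15 differed between medulla and cortex by -0.20 ± 0.19 (edgeR adjusted p = 0.965), Ifit3 by -0.43 ± 0.27 (edgeR adjusted p = 0.956) and Cxcl10 by -0.87 ± 0.46 (edgeR adjusted p = 0.886). Of 17 antiviral genes tested 7 were higher and 10 lower in the medulla, with a median of -0.20 against -0.02 over all genes, and of 13 genes of the GTPase and interferon gamma list 4 were higher and 9 lower, with a median of -0.06. All 8 class II genes tested had positive differences, with a median of 0.33 and without a call, while over all genes 745 were higher and 822 lower. Of 9 class II genes tested in each comparison cluster, 7 were also higher in the medulla in Macrophage_1 (median 0.03) and 9 in Macrophage_2 (median 0.07).

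The comparison clusters held more cells and more tested genes. In Macrophage_1 35 of 6261 genes passed between medulla and cortex (0.559%), 19 higher and 16 lower in the medulla, and 10 passed without Hamburg. Ifnb1 (-2.56 ± 0.35, edgeR adjusted p = 1.47e-04), Ifit2 (-1.40 ± 0.26, edgeR adjusted p = 0.00465), Gbp8 (-2.12 ± 0.40, edgeR adjusted p = 0.00465) and Ifih1 (-1.11 ± 0.27, edgeR adjusted p = 0.0483) fell in the medulla. The fall of Ifnb1 was seen in Aachen and Hamburg. In Bonn, with 24 Macrophage_1 cells in cortex, Ifnb1 lay at 0 CPM in cortex and OM and at 2.72 in IM. The Ifnb1 levels of Macrophage_1 rest on 106 UMIs in 53 of 1996 cells. Among the other list members called in Macrophage_1, Ccl3 fell (-0.89 ± 0.19, edgeR adjusted p = 0.0141), while the feedback inhibitor Socs3 (1.36 ± 0.28, edgeR adjusted p = 0.0141) and the platelet chemokine Pf4 (0.999 ± 0.22, edgeR adjusted p = 0.0264) rose. The scavenging genes Trem2 (1.26 ± 0.28, edgeR adjusted p = 0.0264) and Gas6 (1.68 ± 0.39, edgeR adjusted p = 0.0343) and the dendritic cell marker Cd209a (1.99 ± 0.37, edgeR adjusted p = 0.00465) rose as well. In Macrophage_2 4 of 4452 genes passed (0.0898%), with Cxcl9 rising by 1.58 ± 0.33 (edgeR adjusted p = 0.0317). A Cxcl9 UMI was found in 36 of the 1680 Macrophage_2 cells. In Hamburg their Cxcl9 level was lower in OM (13.6 CPM) and higher in IM (107) than in cortex (37.2). In Isg+ cells Ifit2 was at 461, 213 and 312 CPM in cortex, OM and IM of Aachen, 303, 150 and 518 of Bonn, and 320, 128 and 213 of Hamburg. OM was lowest in each dataset, and the medulla minus cortex difference of Ifit2 was -0.57 ± 0.27 (edgeR adjusted p = 0.784). Cxcl9 in Isg+ cells differed by -0.17 ± 0.40 (edgeR adjusted p = 0.9995).

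Whether the compartment acted differently in Isg+ cells was tested as an interaction with the library as a block. No gene of 5175 passed (0%), with 223 at an unadjusted p under 0.05 and none called by DESeq2. The smallest p-values belonged to H2-M2 (8.78 ± 1.89, edgeR adjusted p = 0.162), Ccn1 (-3.73 ± 0.94, edgeR adjusted p = 0.720) and Msl3 (3.76 ± 1.01, edgeR adjusted p = 0.923), and H2-M2 was found in 2 of the 9 Isg+ libraries. For Ifit2 the interaction was 0.58 ± 0.47 and for Cxcl9 -0.99 ± 0.39 (edgeR adjusted p = 0.9995 for both). The interaction set Isg+ cells against the mean of Macrophage_1 and Macrophage_2. It therefore did not compare Isg+ cells with the single cluster in which Ifit2 or Cxcl9 was called. In simulated counts it recovered 3% of 2-fold and 28% of 4-fold changes, so the lack of calls does not show that the clusters were alike.

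**Figure D5:**
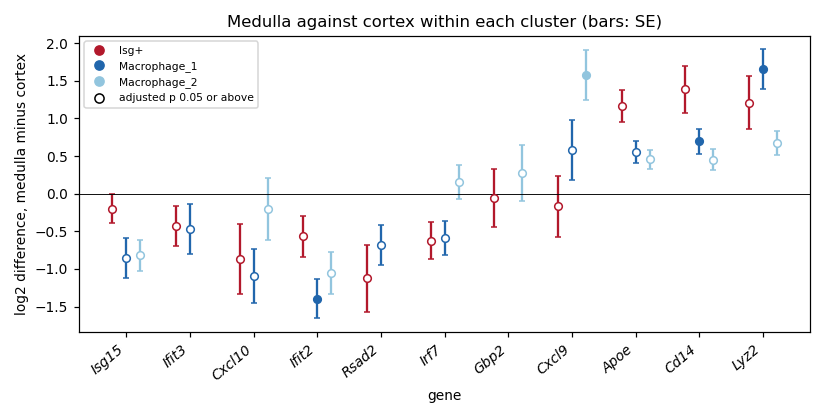
Log2 difference between medulla and cortex (y axis, bars are SE) of 11 named genes in Isg+ cells, Macrophage_1 and Macrophage_2, from edgeR fits over 9 libraries with the dataset as block; filled points have an adjusted p under 0.05, and a missing point is a gene that was not tested in that cluster. No Isg+ point is filled, Apoe lies above 0 in all 3 clusters (1.16, 0.55 and 0.46), and Ifit2 lies below 0 in all 3.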

How the data were processed

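The CD45+ kidney cells were sequenced on the 10x platform. Per the labels the authors ran Cell Ranger and Seurat with mm10, and they kept the cluster, compartment and facility of each cell. The deposited table holds raw estimated counts, whole in Aachen and Bonn and whole for 0.118% of Hamburg values. Libraries of 2122809 to 15267126 UMIs limit rare genes.

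Counts were summed per cluster and library (at least 10 cells), rounded, filtered with filterByExpr, scaled by TMM and fitted with edgeR 4.0.16 (R 4.3.3) by quasi-likelihood, with Benjamini-Hochberg adjustment over all genes tested and a threshold of 0.05, two-sided. The dataset was a block, since libraries of the same facility deviated together (correlations 0.635 to 0.809 over 9 pairs, -0.760 to 0.208 over 27 others). DESeq2 1.42.0 was an alternative. Cells were thinned to 500 UMIs for shares of cells. No doublet caller was run, and cells with 2 or more UMIs of other types were counted. The scripts were tested on simulated data. There the medulla against cortex fit in Isg+ cells recovered 46% of 2-fold and 95% of 4-fold changes, with 11 false calls. The interaction recovered 3% and 28%, with 0 false calls. In both simulations the changes were planted in many genes at once and alike in OM and IM. Recovery where few genes change was not tested.

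The members and gene lists were chosen with earlier results of these data known. Named are the 3 markers, up to 6 members per list with the largest and smallest differences, the interferon and receptor genes, up to 10 genes in each direction outside the lists, and genes called or nearest to a call between compartments. Genes named as found after seeing values are marked. No column of per-sample values was left unused. Promoters came from RefSeq GRCm38.p6. Some members of the lists are not reported here.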

Additional observations from a re-analysis of the deposited data

How the results depend on the processing

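Counts of genes called between compartments rest on few cells and moved with the processing. For Isg+ cells, medulla against cortex gave 0 genes, and 1 with DESeq2, 16 with all genes of any count, 1 with at least 20 cells a library, 1 without cells holding 2 or more UMIs of other types, and 2 to 5 when 1 dataset was left out (2 without Aachen, 5 without Bonn, 4 without Hamburg). OM against cortex gave 2, and 9 with any count, 0 with at least 20 cells, 0 with thinned cells, 0 without cells holding UMIs of other types, 0 without the replicate block, and 0 to 7 with 1 dataset left out. IM against cortex gave 0, and 13 with any count, 1 with at least 20 cells, 2 without cells holding UMIs of other types, and 0 to 2 with 1 dataset left out. Macrophage_1 gave 35, and 6 with DESeq2, 71 with any count, 2 thinned, 13 without cells holding UMIs of other types, 0 without the replicate block, and 10 to 24 with 1 dataset left out. Macrophage_2 gave 4, and 0 with DESeq2, 20 with any count, 0 thinned, 2 without such cells, 0 without the replicate block, and 2 to 17 with 1 dataset left out. The interaction gave 0, and 5 with any count, 1 with at least 20 cells, and 0 to 3 with 1 dataset left out. The cause of these shifts was not tested.

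The list medians stayed positive in every alternative run. The antiviral median was 2.82 against Macrophage_1 and 2.84 against Macrophage_2 with all genes of any count (21 genes), 1.24 and 1.28 with thinned cells (3 genes), and 1.69 to 3.19 and 1.89 to 3.12 with 1 dataset left out, the highest without Hamburg. The GTPase and interferon gamma median was 5.18 and 6.10 with thinned cells (1 gene), and 1.79 to 2.86 and 1.98 to 2.36 with 1 dataset left out. Medulla minus cortex in the share of Isg+ cells was 2.36 points when Macrophage_3 was left out of the denominator, and -1.08 to 0.75 with 1 dataset left out. Leaving out monocyte-gene cells and the Bonn OM and IM libraries was chosen after seeing the data.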
